A study of Mus musculus with 12 samples.

Results

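Carbonic anhydrases were examined in cerebellar cortex through 7 genes chosen by symbol, Car2, Car4, Car7, Car10, Car11, Car12 and Car14, among the 54752 genes counted. Car2 entered because it differed between the ketogenic diet (KD) and dietary restriction (DR), so its values are given without a test, and Car8 was left out of the set. The tissue came from 12 wild-type male F1 hybrid C57BL6J/FVB mice aged 12 weeks, with 4 mice on each of 3 diets, and no mouse carried a transgene or received a drug. Mice fed ad libitum (AL) had free access to food. DR mice received a reduced ration once a day shortly before the dark period. AL and DR mice were both killed early in the dark period, the DR mice without their last meal. The composition and duration of KD are not given in the sources used here. The AL and DR mice were those with the best RNA among a larger number, and replicates are separate mice.

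Carbonic anhydrases catalyse the interconversion of carbon dioxide and water with bicarbonate and a proton, and thereby set how fast pH and bicarbonate can change within and around cells. The active enzymes hold a zinc ion with a triad of histidines. In brain, cytosolic Car2 is best known from oligodendrocytes and other glia, cytosolic Car7 is a neuronal enzyme that supplies bicarbonate to GABA-A receptor currents, and Car4, Car12 and Car14 act at the outer face of the plasma membrane. Car10 and Car11 encode secreted relatives without enzyme activity that bind neurexins at synapses.

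This division is visible in the coding sequences. The following lines show the 30 coding bases around the first pair of zinc-binding positions, aligned on Car2, with the codons at these positions in capitals. They were read from the GENCODE M21 transcripts, each 5′ to 3′ on the coding strand and each within 1 exon of GRCm38.
Car2, exon 3 of 7, chr3:14895060-14895089, plus strand: atccagtttCACtttCACtggggctcatct
Car7, exon 3 of 7, chr8:104547725-104547754, plus strand: aagcagctcCACttcCACtggggcaagaag
Car4, exon 4 of 8, chr11:84964158-84964187, plus strand: gtacagttgCACctgCACtggtcaaatggg
Car12, exon 4 of 11, chr9:66747638-66747667, plus strand: gagcagctgCACttgCACtgggggaaccgc
Car14, exon 4 of 11, chr3:95900297-95900326, minus strand: gcccagctcCACctgCACtggggtcagaga
Car10, exon 4 of 9, chr11:93490597-93490626, plus strand: gaagaaatcCGGctaCACtttgggagtgag
Car11, exon 4 of 9, chr7:45702539-45702568, plus strand: agtgaactgCGCctgCTAtttggagctcga
Both codons encode histidine in the 5 active enzymes. Car10 has an arginine codon at the first position and Car11 has an arginine and a leucine codon. At the third zinc-binding position, the 5 active enzymes again have a histidine codon, while Car10 and Car11 have glutamine codons (CAA and CAG), so that 1 of 3 histidines is left in Car10 and 0 of 3 in Car11.

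Between 31712084 and 40798644 reads per library were assigned to genes (median 36674269). All 10 granule cell markers and all 12 Purkinje cell markers listed had a mean of at least 1 CPM (read counts relative to the library's total, with totals scaled by TMM), including the granule cell gene Gabra6 at 881 CPM and the Purkinje cell gene Pcp2 at 298 CPM. Of the 12 choroid plexus markers, 4 reached 1 CPM, and Folr1 and Sostdc1 were at 0 in at least 1 library.

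All 7 members passed the filter on low counts in every comparison. To compare levels between genes, CPM were divided by the length of the gene model. On this scale Car4 was the most abundant member, with 110.2 ± 6.97 CPM per kb (SD, n = 12), followed by Car11 with 61.8 ± 3.92 CPM per kb. Car2 (40.1 ± 6.62 CPM per kb) and Car10 (38.9 ± 1.65 CPM per kb) came next, and their ranges overlapped. Car7 followed with 11.4 ± 1.31, Car14 with 2.76 ± 0.452 and Car12 with 0.543 ± 0.107 CPM per kb. Apart from Car2 and Car10, no library of a gene overlapped with a library of the next gene in this order. Car4 stood at the 98.8th percentile and Car12 at the 20.3rd percentile of all genes tested on this scale. Over the 12 mice, Car10 varied least between libraries (coefficient of variation of the CPM 4.25%) and Car12 most (19.7%), with Car12 resting on 86 to 181 reads per library and Car10 on 7938 to 10028.

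**Figure D1:**
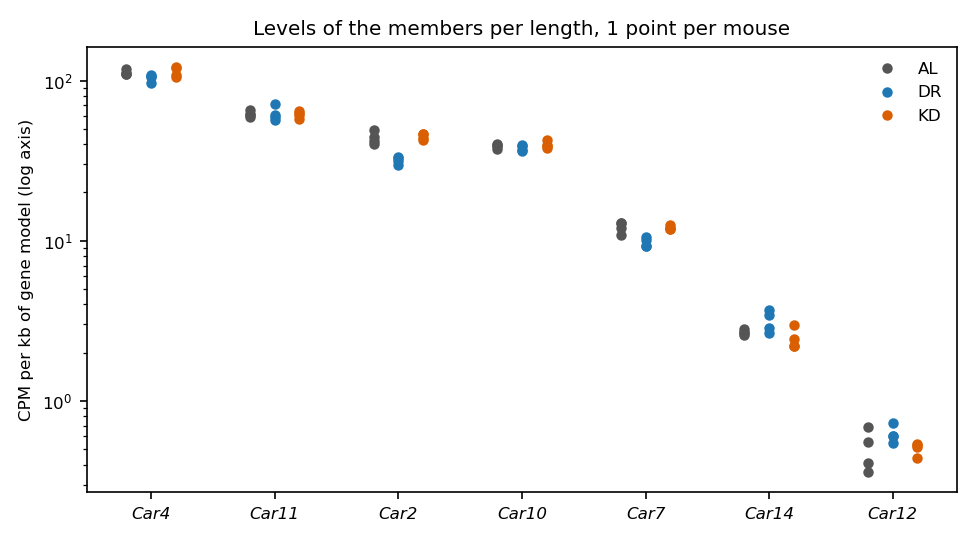
Level of each member per length of its gene model, in CPM per kb on a log axis, with 1 point per mouse coloured by diet (AL, DR, KD). Car4 lies highest at 110.2 CPM per kb on average and Car12 lowest at 0.543, and the points of Car2 and Car10 share 1 range.

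Among the members, only the cytosolic Car2 and Car7 had every DR mouse below every AL and KD mouse, and Car2 was picked for its difference between KD and DR. The lowest mean was on DR in Car4 and Car10 too. Car4 had means of 221, 205 and 224 CPM and Car10 of 249, 241 and 252 CPM on AL, DR and KD. The cytosolic Car13, which is not a member, was not lowest on DR. Car2 (ENSMUSG00000027562.12, chromosome 3 of GRCm38.p6, 14886273 to 14900770) was at 108, 97.6, 101 and 119 CPM in AL mice, at 76.0, 80.8, 71.6 and 80.0 CPM in DR mice and at 112, 106, 112 and 103 CPM in KD mice. Every DR mouse lay below every AL and KD mouse, while AL and KD mice overlapped. The mean was 106 ± 9.46 CPM on AL, 77.1 ± 4.20 CPM on DR and 108 ± 4.42 CPM on KD (SD, n = 4 each). Its fitted log2 fold change was 0.49 (standard error, SE, 0.05) between KD and DR, the difference it was picked for, which corresponds to 40.5% more on KD. Against AL it was -0.46 (SE 0.06) on DR and 0.03 (SE 0.05) on KD, and both of these comparisons share libraries with the one used to pick the gene.

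Car7 (ENSMUSG00000031883.13, chromosome 8, 104534689 to 104550343) was at 47.1, 47.0, 39.5 and 44.0 CPM in AL mice, at 38.5, 33.8, 33.6 and 36.7 CPM in DR mice and at 45.7, 42.8, 43.3 and 43.4 CPM in KD mice. The DR mice again lay below all mice on the other diets, with AL replicate 3 the closest to them. On DR Car7 fell by 19.7% against AL, or -0.32 on the log2 scale (SE 0.06, edgeR adjusted p = 0.0181, corrected over all genes tested). It was higher on KD than on DR by 22.7%, or 0.30 on the log2 scale (SE 0.05, edgeR adjusted p = 0.00476). Between KD and AL its log2 fold change was -0.02, with a 95% confidence interval of -0.15 to 0.11 (adjusted p = 0.994). The difference between KD and DR passed in all 8 leave-one-out fits, each on the remaining mice, with adjusted p of 0.00251 to 0.0254. The difference between DR and AL passed in 4 of 8, and was lost without AL replicate 1 (adjusted p = 0.073), AL replicate 2 (0.0611), AL replicate 4 (0.0505) or DR replicate 3 (0.0629), while the log2 fold change stayed between -0.37 and -0.28.

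**Figure D2:**
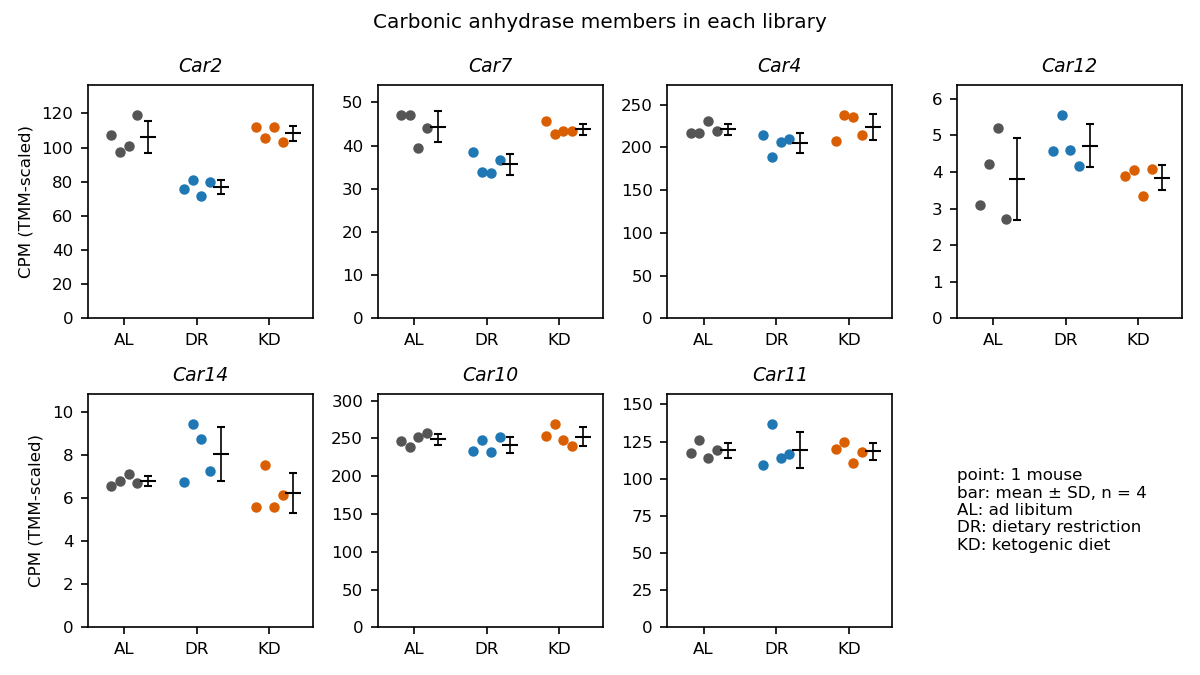
CPM of the 7 members in each of the 12 libraries, by diet (AL, DR, KD), with 1 point per mouse and the mean ± SD of 4 mice beside the points. In Car2 and Car7 the 4 DR mice lie below all AL and KD mice, whereas the diets overlap in Car10 and Car11.

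In bulk tissue, fewer cells of a type and less RNA per cell cannot be told apart. Some markers of several cell types also differed between DR and the other diets. Of all genes tested, 3.06% were called between DR and AL (1.74% lower, 1.32% higher) and 0% between KD and AL. Between KD and DR 4.94% were called (2.43% higher, 2.51% lower). In the order DR against AL, KD against AL and KD against DR, 18%, 4.87% and 18.7% had an unadjusted p under 0.05. Of the 20 oligodendrocyte markers, 4 were lower on DR than on AL, among them Ugt8a, Tspan2 and Cryab, and 0 were higher, while 5 were higher on KD than on DR and 0 lower. Their summed level ranged from 2606 to 3284 CPM on AL, from 2425 to 2981 CPM on DR and from 2858 to 3091 CPM on KD, so that the diets overlapped. Of the 12 Purkinje cell markers, 2 were lower on DR than on AL and higher on KD than on DR, among them Doc2b. The summed level of the 12 was 8172 to 8735 CPM on AL, 7036 to 8058 CPM on DR and 8049 to 8304 CPM on KD. Every DR mouse lay below every AL mouse in this sum, while DR and KD mice overlapped. Of the 16 markers of astrocytes and Bergmann glia, 3 were lower on DR than on AL (Aqp4, Hopx and Gja1), and 3 were higher and 1 lower on KD than on DR, with summed levels of 7106 to 7694 CPM on AL, 6708 to 7208 CPM on DR and 7119 to 7407 CPM on KD. Of the 10 granule cell markers 0 were called between DR and AL, while 1 was higher (Fat2) and 1 lower (Cbln3) on KD than on DR, and their sums ranged from 7023 to 7581 CPM on AL, from 7177 to 7460 CPM on DR and from 7172 to 7565 CPM on KD. No marker of these 4 lists was at 0 in any library. Red blood cells also hold Car2. Of 6 tested erythroid markers 0 were called in any comparison, but between KD and AL 5 of 6 had an unadjusted p under 0.05, all with lower values on KD, and the median log2 fold change was -0.46. The summed erythroid level ranged from 276 to 424 CPM on AL, from 177 to 495 CPM on DR and from 239 to 271 CPM on KD, so that KD lay below AL without overlap. Of 10 microglial markers 0 were called in any comparison, and 4 had an unadjusted p under 0.05 between KD and DR, all with higher values on KD. Their sums were 74.6 to 78.8 CPM on AL, 68.8 to 74.1 CPM on DR and 72.8 to 84.1 CPM on KD, so that every DR mouse lay below every AL mouse. The part of these marker changes in the values of Car2 and Car7 was not tested.

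Over the 12 libraries the log2 CPM of Car2 and Car7 had a Pearson r of 0.84, and of 0.12 after the mean of each diet was removed. The value across diets rests in part on the difference Car2 was picked for. Against the summed levels of the 8 marker lists, r for Car2 ran from -0.12 (granule cells) to 0.78 (Purkinje cells), and within diets from -0.46 (endothelium) to 0.24 (erythroid cells). With oligodendrocytes r for Car2 was 0.57, and 0.20 within diets, and with Purkinje cells it was 0.04 within diets. For Car7 it ran from -0.50 (granule cells) to 0.83 (astrocytes and Bergmann glia), with 0.81 for Purkinje cells, and within diets from -0.87 (granule cells) to 0.78 (astrocytes and Bergmann glia). All of these values were computed on the same 12 libraries and scaling factors.

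None of the 3 membrane enzymes passed the test, and they did not share 1 direction. Car4 (ENSMUSG00000000805.18, chromosome 11, 84957786 to 84966044), a lipid-anchored enzyme known from brain capillaries, was at 217, 217, 231 and 219.5 CPM in AL mice, at 214, 189, 207 and 210.4 CPM in DR mice and at 207, 238, 236 and 214 CPM in KD mice. DR mice lay just below all AL mice and overlapped with KD mice. The log2 fold change between DR and AL was -0.11 (SE 0.05, edgeR unadjusted p = 0.0346, adjusted p = 0.236). Its 95% confidence interval, -0.23 to 0.0057, was wider than this test implies. Between KD and DR the log2 fold change was 0.13 (SE 0.05, adjusted p = 0.214). Of the 14 endothelial markers, 2 were lower on DR than on AL (Tie1 and Itm2a), beside 1.74% of all genes. On KD 3 were higher than on DR (Kdr, Tie1 and Itm2a), beside 2.43% of all genes. Their summed level was 432 to 454 CPM on AL, 394 to 452 CPM on DR and 410.1 to 426 CPM on KD. The means of this sum were 444, 419 and 418 CPM, so that DR and KD were alike and every KD mouse lay below every AL mouse. Against this sum Car4 had a Pearson r of 0.16 over the 12 libraries, and -0.0027 within diets. The part of endothelial RNA in the value of Car4 was not tested.

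Car12 and Car14, enzymes anchored by a membrane span of their own, had their highest mean on DR. Car12 (ENSMUSG00000032373.15, chromosome 9, 66713686 to 66766845) was at 3.11, 4.21, 5.19 and 2.73 CPM in AL mice, at 4.57, 5.55, 4.60 and 4.15 CPM in DR mice and at 3.90, 4.05, 3.34 and 4.09 CPM in KD mice. DR mice lay above all KD mice but overlapped with AL mice, which spread widest. The log2 fold change was -0.29 (SE 0.12) between KD and DR and 0.31 (SE 0.17) between DR and AL, and neither passed (edgeR adjusted p = 0.189 and 0.386).

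Car14 (ENSMUSG00000038526.14, chromosome 3, 95897768 to 95904691) was at 6.58, 6.81, 7.12 and 6.72 CPM in AL mice, at 6.74, 9.45, 8.77 and 7.26 CPM in DR mice and at 5.61, 7.56, 5.58 and 6.15 CPM in KD mice. DR and KD mice overlapped through KD replicate 2, and DR and AL mice through DR replicate 1. Its log2 fold change between KD and DR was -0.37 (SE 0.12, unadjusted p = 0.00846, edgeR adjusted p = 0.101), and 0.24 (SE 0.11, adjusted p = 0.261) between DR and AL. The difference between KD and DR passed without the filter on low counts (adjusted p = 0.0126) and in 1 of the 8 leave-one-out fits, without KD replicate 2 (adjusted p = 0.0443). Exons of Aph1a on the opposite strand cover 17.5% of the exonic bases of Car14, and the library kit does not keep strand, so the value of Car14 is uncertain. Choroid plexus is known to carry Car12 and Car14. Its 12 markers had summed levels of 28.3 to 29.6 CPM on AL, 25.7 to 31.4 CPM on DR and 23.6 to 33 CPM on KD. Most of this sum came from Otx2 (12.6 CPM on average) and Clic6 (8.09 CPM), so it rests on few of the markers. Against this sum Car12 had a Pearson r of -0.13, and -0.03 within diets. Car14 had -0.34 and -0.35. Of the 12 choroid plexus markers 8 were tested between KD and DR, with 3 of 8 log2 fold changes above 0 and a median of -0.11. Beside 4.94% of all genes, 1 of these 8 was called. This was Ttr, at 3.41 ± 3.24 CPM on KD and 0.762 ± 0.0739 CPM on DR (SD, n = 4 each, edgeR adjusted p = 0.0332), with overlapping groups. The part of choroid plexus RNA in the values of Car12 and Car14 was not tested. Aph1a itself, at 57.5 CPM on average, differed by 0.049 on the log2 scale for KD against DR (adjusted p = 0.609).

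**Figure D3:**
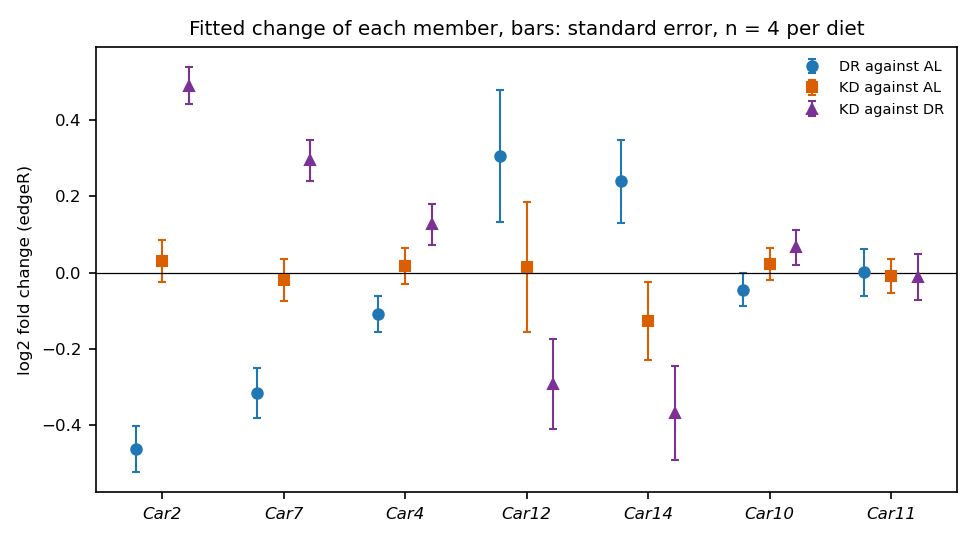
Log2 fold change of each member in edgeR's fits of DR against AL, KD against AL and KD against DR, with the standard error as bars and 4 mice per diet. Car2 and Car7 lie below 0 for DR against AL and above 0 for KD against DR, Car12 and Car14 lie on the opposite sides, and the estimates for KD against AL run from -0.13 to 0.03.

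The secreted relatives without enzyme activity did not pass in any comparison, and their log2 fold changes lay between -0.04 and 0.07. Car10 (ENSMUSG00000056158.14, chromosome 11, 93098028 to 93601749) was at 247, 239, 252 and 257 CPM in AL mice, at 233, 248, 232 and 252 CPM in DR mice and at 253, 269, 248 and 239.7 CPM in KD mice, and all diets overlapped. Its log2 fold changes were -0.04 (95% confidence interval -0.15 to 0.06) between DR and AL and 0.07 (-0.05 to 0.18) between KD and DR, with edgeR adjusted p of 0.656 and 0.487.

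Car11 (ENSMUSG00000003273.14, chromosome 7, 45699843 to 45704682) was at 117, 126, 114 and 119.7 CPM in AL mice, at 109, 137, 114 and 117 CPM in DR mice and at 120.3, 125, 111 and 118 CPM in KD mice. Its highest and its lowest library were both DR mice. The 95% confidence interval of the log2 fold change ran from -0.15 to 0.15 between DR and AL (adjusted p = 0.995) and from -0.16 to 0.14 between KD and DR (adjusted p = 0.95), which leaves room for changes of such a size. The nearest gene downstream of Car11 is the clock output gene Dbp, which starts 406 bases beyond its end. Dbp differed by -0.61 on the log2 scale for DR against AL (SE 0.21, edgeR adjusted p = 0.133) and did not pass. Its levels overlapped, at 24.8 to 37.6 CPM in AL mice and 14.4 to 33.5 CPM in DR mice. The study reports that Dbp fell over the span of dissection times.

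Leaving out Car2, 1 of 6 members was called between DR and AL, which was Car7, lower on DR, where 3.06% of 19052 genes tested were called, 1.74% lower and 1.32% higher. Groups did not overlap in 2 of 6 members (Car4 and Car7), against 10.9% of all genes, and 3 of 6 had an unadjusted p under 0.05 (Car4, Car7 and Car14), which 18% of all genes had. The median log2 fold change of the 6 was -0.022, beside 0.0036 over all genes. Between KD and DR, 1 of 6 was called, again Car7, higher on KD, where 4.94% of 19087 genes were called, 2.43% higher and 2.51% lower. Groups did not overlap in 2 of 6 (Car7 and Car12), against 11.8% of all genes. Here 4 of 6 members had an unadjusted p under 0.05 (Car4, Car7, Car12 and Car14), which 18.7% of all genes had. These members did not share 1 direction, with Car4 and Car7 higher and Car12 and Car14 lower on KD than on DR. The comparisons of AL and of KD with DR share the 4 DR libraries, so the values of Car7 in both rest in part on the same mice.

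KD and AL mice were not separated by any member. Of the 6 members 0 were called, 0 had an unadjusted p under 0.05 and 0 were without overlap, which 2.96% of all genes were. In edgeR's test 0 of 19036 genes were called in this comparison (0%), with 4.87% at an unadjusted p under 0.05 and 10 genes called with DESeq2. The log2 fold changes of the 6 members lay between -0.13 (Car14, 95% confidence interval -0.38 to 0.12) and 0.02 (Car10, -0.08 to 0.12). The intervals of Car4, Car7, Car10 and Car11 lay within -0.15 to 0.13, whereas that of Car12 ran from -0.40 to 0.43.

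Of 8 further carbonic anhydrase genes, 5 were tested, and Car1, Car3 and Car6, which had libraries at 0, were not. Car9 (ENSMUSG00000028463.14, chromosome 4, 43506966 to 43513729), a membrane enzyme known as a target of hypoxia signalling, was at 8.06, 8.67, 12.8 and 8.81 CPM in AL mice, at 13.6, 14.6, 14.2 and 11.7 CPM in DR mice and at 8.65, 9.36, 8.32 and 7.29 CPM in KD mice. All DR mice lay above all KD mice, and AL replicate 3 lay within the DR range. Car9 was lower on KD than on DR, with a log2 fold change of -0.68 (SE 0.09, edgeR adjusted p = 0.000521), and this difference passed in all 8 leave-one-out fits. It was higher on DR than on AL by 0.49 on the log2 scale (SE 0.13, adjusted p = 0.0465), which passed in 2 of 8 such fits, without AL replicate 3 or DR replicate 4, with adjusted p of 0.00139 to 0.149 over the 8. Its exons overlap those of Gm12454 on the opposite strand over 9.29% of their bases. Gm12454, at 1.16 CPM on average, differed by 0.49 on the log2 scale for DR against AL (edgeR adjusted p = 0.273). For KD against DR it differed by -0.70 (adjusted p = 0.093), so both differences were close to those of Car9. The part of reads from this overlap in the value of Car9 was not tested.

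The other 4 tested genes of the family were not called in any comparison. The mitochondrial Car5b was at 1.67 ± 0.124 CPM on AL, 1.23 ± 0.292 CPM on DR and 1.40 ± 0.183 CPM on KD (SD, n = 4 each), and differed by -0.45 on the log2 scale for DR against AL (edgeR adjusted p = 0.238). The cytosolic Car13 had means of 3.44, 3.54 and 3.86 CPM and Car15 means of 9.18, 9.11 and 9.45 CPM on AL, DR and KD. The value of Car15 is uncertain, since Gm20518 on the same strand covers 65.7% of its exonic bases.

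**Figure D4:**
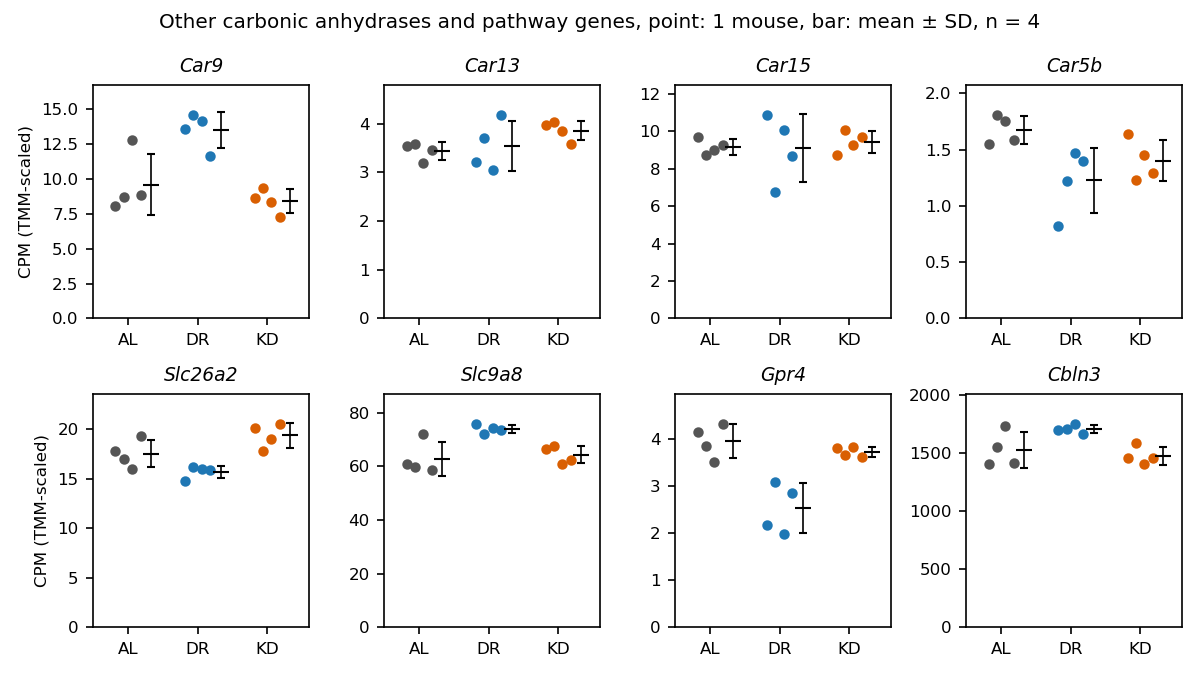
CPM in each of the 12 libraries, by diet (AL, DR, KD), of 4 further carbonic anhydrases (Car9, Car13, Car15, Car5b) and of 4 pathway genes (Slc26a2, Slc9a8, Gpr4, Cbln3), with 1 point per mouse and the mean ± SD of 4 mice. Car9 and Slc9a8 have their highest mean and Gpr4 its lowest mean in DR mice. AL replicate 3 lies within the DR range in Car9 and just below it in Slc9a8.

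Related genes were read in 5 lists. They cover genes that carry, exchange or sense the products of the reaction, cation-chloride cotransporters, and neurexins with their partners. Of 21 genes of bicarbonate and anion exchange and bicarbonate sensing 17 were tested, and 0 differed between DR and AL. Between KD and DR 1 was higher on KD, the sulfate and anion exchanger Slc26a2, at 19.4 ± 1.23 CPM on KD and 15.7 ± 0.620 CPM on DR (0.31 on the log2 scale, edgeR adjusted p = 0.0134, and 0.0512 without KD replicate 1). Of 15 tested genes of proton transport 1 was called, Slc9a8, a sodium-proton exchanger of the Golgi, with 62.8 ± 6.31 CPM on AL, 74.0 ± 1.52 CPM on DR and 64.3 ± 3.18 CPM on KD (SD, n = 4 each). It was higher on DR than on AL (log2 fold change 0.24, adjusted p = 0.0464) and lower on KD than on DR (-0.20, adjusted p = 0.0168), and the first of these differences passed in 1 of 8 leave-one-out fits, without AL replicate 3 (adjusted p = 0.00186), and the second in 6 of 8, all but those without KD replicate 3 (0.0673) or KD replicate 4 (0.0606). With all 12 libraries in 1 fit, the second had an adjusted p of 0.0501.

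Of 8 tested acid-sensing channels and receptors 1 was called in the same comparisons, Gpr4, a proton-sensing receptor known from endothelium. It was at 3.95 ± 0.355 CPM on AL, 2.53 ± 0.531 CPM on DR and 3.72 ± 0.109 CPM on KD (SD, n = 4 each), with log2 fold changes of -0.65 for DR against AL (adjusted p = 0.0336) and 0.56 for KD against DR (adjusted p = 0.0333). The former passed in 3 of 8 leave-one-out fits (without AL replicate 3, DR replicate 2 or DR replicate 4) and the latter in 2 of 8 (without DR replicate 2 or DR replicate 4). Among the 5 tested cation-chloride cotransporters 0 were called. The neuronal potassium-chloride cotransporter Slc12a5, which with Car7 bears on GABA responses, differed by -0.16 on the log2 scale for DR against AL (unadjusted p = 0.00971, adjusted p = 0.131) and by 0.16 for KD against DR (adjusted p = 0.113), and was named after its values were seen. Of 15 tested neurexins and partners of neurexins, among which Car10 and Car11 act, 1 was lower on KD than on DR, the granule cell gene Cbln3 (-0.21 on the log2 scale, edgeR adjusted p = 0.0145), a call lost without DR replicate 3 (0.054), KD replicate 1 (0.0585) or KD replicate 3 (0.0656). Across these 5 lists and the further family members, 3 of 65 tested genes (4.62%) were called between DR and AL, 0 of 65 between KD and AL, and 5 of 65 (7.69%) between KD and DR, beside 3.06%, 0% and 4.94% of all genes.

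The genes whose log2 CPM followed each member most closely over the 12 libraries were sought among 15476 others with a mean of at least 1 CPM. For Car2 these were Nr3c1, which encodes the glucocorticoid receptor (Pearson r 0.97, and 0.79 within diets), Kpna2, an importin (0.95 and 0.67), and Egr4, an immediate early transcription factor (0.95 and 0.52). For Car7 they were Oxct1, the enzyme that activates ketone bodies for use in mitochondria (0.97 and 0.88), the ER chaperone gene Calr (0.95 and 0.81) and the profilin gene Pfn2 (0.95 and 0.88). The closest gene was Wbp11 for Car4 (0.91), Atf6b for Car10 (0.95), Slc3a2 for Car11 (0.86), Mpnd for Car12 (0.94) and Pced1b for Car14 (0.93). These were picked as the highest values among 15476 over the same 12 libraries and scaling factors, and those of Car2 rest in part on the difference it was picked for.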

How the data were processed

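Poly(A) RNA of cerebellar cortex was sequenced from both ends in 12 libraries. The authors trimmed reads with Trimmomatic 0.39, aligned them with STAR 2.7.0f to GRCm38.p6 and deposited read counts per gene from featureCounts (Subread 1.6.4), without normalization. The strand setting is not given in the sources used here. Diets were taken from the labels, and replicates were numbered in accession order. Symbols were matched for 54723 of 54752 genes.

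Genes with enough reads by filterByExpr (minimum count 10, minimum total 15) entered TMM scaling and a quasi-likelihood F-test (edgeR 4.0.16, R 4.3.3) that was run for each pair of diets on its own 8 libraries. P-values were corrected over all genes tested by the Benjamini-Hochberg procedure, and genes with an adjusted p under 0.05 were called. CPM used TMM factors of all 12 libraries, and log2 CPM a prior count of 2. Confidence intervals of 95% were taken from the standard error with 6 degrees of freedom. The F-test borrows variance information between genes and so has more degrees of freedom. These intervals are therefore wider than the test implies, and can hold 0 at an unadjusted p under 0.05. DESeq2 1.42.0, other scalings and filters and fits with a mouse left out were alternatives. The procedure was run on simulated counts for DR against AL. It recovered 64 of 100 planted changes of 0.5 on the log2 scale and 86 of 100 changes of 1, with 9 false calls. Smaller changes were not simulated. All 18 pairs of mice on 1 diet differed by more than sampling noise (chi-square per gene 4.6 to 10.5). Named were the members, further family genes with at least 1 CPM, called genes of the lists, the 3 genes most like each member, and genes overlapping or next to them. The members and lists were chosen with earlier results of these data known. Single values of some marker genes are not reported here.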

Additional observations from a re-analysis of the deposited data

Results flagged for a closer look

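Of 21 groups of 4 mice, formed by the 7 members on 3 diets, 1 held a mouse far from the others by Dixon's test, which by chance flags about 1 group in 20. In Car4, AL replicate 3, at 231 CPM, lay above the other AL mice, at 217 to 219.5 CPM. Without it the log2 fold change between DR and AL stayed below 0 and did not pass, as in every other fit with a mouse left out (adjusted p = 0.197 to 0.456 in edgeR's test).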

How the results depend on the processing

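Members and further genes were fitted again with other scalings, DESeq2, other filters, all 12 libraries in 1 fit, and without each mouse in turn; the alternatives for genes other than members were chosen after seeing the data. Leave-one-out fits aside, 116 of 120 log2 fold changes of the members stayed the same. For members other than Car2 this meant the same direction and the same side of the threshold. For Car2, which was not tested, it meant a shift smaller than its spread within diets. For DR against AL, Car11 turned negative with DESeq2 size factors (-0.00074), DESeq2 (-0.00060) and no low-count filter (-0.0032), and Car15 turned positive by library size only (0.014). With no low-count filter, 2 members were called for KD against DR, Car7 and Car14, and 6, 1 and 10 genes of the family and pathway lists for DR against AL, KD against AL and KD against DR, in place of 3, 0 and 5. For KD against AL DESeq2 called 1 listed gene, the monocarboxylate transporter Slc16a1. For DR against AL 1 listed gene was called at a minimum of 10 CPM, where Car9 missed the threshold (adjusted p = 0.0515). That filter leaves no value for Car12 and Car14. Over all genes, no filter gave 1258, 118 and 1503 calls for DR against AL, KD against AL and KD against DR, in place of 583, 0 and 942, and DESeq2 gave 1012, 10 and 1338.

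Leave-one-out fits called 0 to 1 members and 0 to 4 listed genes for DR against AL, and 1 to 2 members and 2 to 6 listed genes for KD against DR. Over all genes they called 235 to 712, 0 to 6 and 467 to 946 in the order above. Some log2 fold changes near 0 changed sign. For DR against AL, Car11 ranged from -0.071 to 0.044, Car13 from -0.049 to 0.10 and Car15 from -0.10 to 0.11. For KD against AL, Car4 ranged from -0.014 to 0.052, Car7 from -0.070 to 0.0093, Car10 from -0.010 to 0.045, Car11 from -0.037 to 0.023, Car12 from -0.11 to 0.20 and Cbln3 from -0.084 to 0.023. For KD against DR, Car11 ranged from -0.050 to 0.060 and Car15 from -0.068 to 0.15. Car2 ranged from -0.50 to -0.40 (DR against AL), from -0.012 to 0.087 (KD against AL) and from 0.46 to 0.51 (KD against DR). The causes were not tested. No paired analysis was possible because the labels give the mice no shared replicate numbers. Depth limits Car12, at 86 to 181 reads per library, most among the members.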

Other observations

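Car5a, which encodes a mitochondrial carbonic anhydrase, lay under 1 CPM and was looked at after its values were seen. It was at 0.768 ± 0.120 CPM on AL, 0.588 ± 0.149 CPM on DR and 0.409 ± 0.0552 CPM on KD (SD, n = 4 each), and KD mice did not overlap with AL mice. Its log2 fold change for KD against AL was -0.90 (SE 0.25, unadjusted p = 0.00226, edgeR adjusted p = 0.924), so it did not pass. Exons of BC048644 on the opposite strand cover 23.5% of its exonic bases, which leaves its value uncertain.

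Slc16a1, a monocarboxylate transporter that moves lactate and ketone bodies together with protons, was also named after its values were seen. For KD against AL its log2 fold change was 0.28 (SE 0.05, unadjusted p = 5.42e-05, edgeR adjusted p = 0.224). It did not pass in edgeR with the low-count filter, and passed in DESeq2 and in edgeR without that filter.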
